A study of Homo sapiens and Mus musculus with 28 samples.

Results

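The constitutive proteasome is the protease that every cell uses to break down proteins tagged with ubiquitin, and 34 genes of its subunits and assembly helpers were followed here through 24 RNA libraries of SCC1 cells, an established human head and neck squamous carcinoma line. They were the rows whose symbols are PSMA1 to PSMA7, PSMB1 to PSMB7, PSMC1 to PSMC6 and PSMD1 to PSMD14, taken once per gene ID, which gave 34 of the 35135 gene IDs in the files. The study examined REXO4, an RNA exonuclease, through knockout cells and through drugs that act on the STING pathway of DNA sensing.

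The libraries formed 8 groups of 3. In the knockout experiment, Ctrl_Vehicle was control SCC1 cells given vehicle, R4KO_1_Vehicle and R4KO_2_Vehicle were knockouts 1 and 2 given vehicle, and KO_2_H151 and KO_2_BX_795 were cells labelled as knockout 2 and given H-151 or BX-795. The first compound binds STING covalently and blocks it. The second blocks TBK1, the kinase that STING activates, and other kinases besides. In the iR4 experiment, Vehicle was SCC1 cells given vehicle, iR4 was cells under a treatment that the labels name only as iR4, and H151_iR4 carried both names. The labels do not expand iR4 and give no dose, time, vehicle, guide or clone, nor say whether a replicate was a separate culture, so p-values may measure only technical spread between libraries.

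The targeted transcript was low in the libraries labelled as knockouts. REXO4 stood at 73.9, 77.1 and 70.7 CPM (counts scaled to library size) in the Ctrl_Vehicle libraries, at 9.13, 9.77 and 9.24 in R4KO_1_Vehicle and at 6.94, 7 and 4.95 in R4KO_2_Vehicle. The KO_2 libraries given inhibitors read higher than R4KO_2_Vehicle, at 17.3, 16.9 and 19.7 CPM with H-151 and at 19.4, 18.7 and 18.6 with BX-795. They also carried PXDN transcripts at 10.1 to 13.4 CPM, as R4KO_1_Vehicle did at 7.25 to 8.82, while R4KO_2_Vehicle had at most 0.263, so whether they came from the same cells as R4KO_2_Vehicle cannot be told, and inhibitor results are given against R4KO_1_Vehicle as well. In the iR4 experiment REXO4 read 92.1, 98.6 and 97.6 CPM with vehicle, 63, 58.1 and 63.1 with iR4, and 92.6, 88.9 and 93 in H151_iR4. Libraries held 16041474 to 27937636 counts, and those of KO_2 cells with an inhibitor (21355791 or more) were deeper than every R4KO_2_Vehicle library (17673227 or fewer), a difference whose part in the inhibitor results was not tested. The 6 epithelial markers were present in every library (KRT5 at 325 to 977 CPM, TP63 at 81.0 to 326), the leukocyte marker PTPRC had at most 2 counts and the endothelial marker PECAM1 at most 15, while COL1A1, a fibroblast collagen, read 20.1 to 46.9 CPM. The part of these marker levels in the results below was not tested.

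A proteasome is a barrel-shaped core particle capped by regulatory particles. In the core, 2 outer rings of alpha subunits (PSMA genes) form the gate and 2 inner rings of beta subunits (PSMB genes) hold the proteolytic sites of PSMB5, PSMB6 and PSMB7. The regulatory particle has a ring of ATPases (PSMC genes) that unfolds substrates and opens the gate, base and lid subunits (PSMD genes) that bind ubiquitin and remove it, and it is built with help from the chaperones PSMD5, PSMD9 and PSMD10. Cells are known to adjust the subunit genes together, in part through the transcription factor NFE2L1, and under interferon to replace the catalytic beta subunits with PSMB8, PSMB9 and PSMB10, which make the immunoproteasome. By these roles the 34 genes divided into 7 alpha subunits, 7 beta subunits, 6 ATPases, 3 non-ATPase base subunits, 8 lid subunits and 3 chaperones.

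Because the genes moved together, the bases before their start sites are shown for the pair with the largest typical change over the 6 main comparisons (PSMA5 and PSMD3, median absolute log2 fold change 0.67 and 0.58), for the pair with the smallest (PSMA1 and PSMD10, 0.12 and 0.13), and for the pair with the most motif matches (PSMB3 and PSMD9). Each is the 250 bases upstream of a RefSeq start site in GRCh38.p14, 5′ to 3′ on the gene's strand, with capitals for matches, on either strand, to the motifs named after the sequences.
PSMA5 (chr1:109426449-109426698, minus strand): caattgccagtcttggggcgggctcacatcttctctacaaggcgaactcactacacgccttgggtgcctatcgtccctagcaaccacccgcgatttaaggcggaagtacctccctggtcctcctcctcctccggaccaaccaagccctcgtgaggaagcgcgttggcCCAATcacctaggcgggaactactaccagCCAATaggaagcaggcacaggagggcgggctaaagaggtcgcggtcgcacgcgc
PSMD3 (chr17:39980557-39980806, plus strand): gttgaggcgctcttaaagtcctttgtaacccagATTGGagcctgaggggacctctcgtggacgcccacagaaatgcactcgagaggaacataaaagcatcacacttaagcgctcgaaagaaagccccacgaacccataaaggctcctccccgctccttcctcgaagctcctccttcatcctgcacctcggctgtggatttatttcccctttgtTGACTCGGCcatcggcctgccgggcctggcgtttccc
PSMA1 (chr11:14520387-14520636, minus strand): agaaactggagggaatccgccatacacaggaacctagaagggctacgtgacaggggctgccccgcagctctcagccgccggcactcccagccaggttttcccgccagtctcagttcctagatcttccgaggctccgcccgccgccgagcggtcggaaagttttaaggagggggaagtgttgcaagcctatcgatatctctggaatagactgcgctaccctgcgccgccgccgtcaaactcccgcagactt
PSMD10 (chrX:108091543-108091792, minus strand): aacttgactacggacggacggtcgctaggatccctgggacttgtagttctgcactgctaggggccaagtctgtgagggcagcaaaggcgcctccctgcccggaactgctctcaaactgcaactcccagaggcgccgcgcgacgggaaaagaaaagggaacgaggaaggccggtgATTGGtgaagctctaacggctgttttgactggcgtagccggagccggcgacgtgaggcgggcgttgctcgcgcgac
PSMB3 (chr17:38752491-38752740, plus strand): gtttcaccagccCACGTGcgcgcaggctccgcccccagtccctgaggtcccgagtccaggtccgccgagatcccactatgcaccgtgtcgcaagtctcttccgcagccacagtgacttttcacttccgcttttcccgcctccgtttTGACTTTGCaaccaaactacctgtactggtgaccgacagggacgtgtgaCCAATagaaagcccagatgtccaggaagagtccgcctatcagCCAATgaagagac
PSMD9 (chr12:121888540-121888789, plus strand): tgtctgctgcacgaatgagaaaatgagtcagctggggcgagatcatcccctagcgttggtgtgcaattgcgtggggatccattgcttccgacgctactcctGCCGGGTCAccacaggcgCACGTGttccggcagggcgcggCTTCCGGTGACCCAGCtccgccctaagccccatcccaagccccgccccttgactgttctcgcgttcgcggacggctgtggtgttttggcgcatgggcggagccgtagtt

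The motifs were searched on both strands of windows reaching from 250 bases before to 50 after the start site, and RefSeq windows were found for 29 of the 34 genes, 35 windows in all. TGACNNNGC, the core of the antioxidant response element that NFE2L1 and NFE2L2 are known to bind, was in 9 of the 35 windows (25.7%) and in 13.3% of all 35116 promoter windows. CCGGAAG, an ETS site, was in 11 windows (31.4%) against 10.3% of all, and CCAAT was in 16 (45.7%) against 34.6%. CACGTG, the E box, was in 2 windows (5.71%), those of PSMB3 and PSMD9, against 7.26%, and the heat shock element was in none against 0.49%. PSMD9 held an ETS match and a TGACNNNGC match side by side. PSMA5, the member with the largest typical change, held a pair of CCAAT boxes and no TGACNNNGC, and PSMA1 held no match at all. These are matches of letters and no evidence of binding.

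The level of the 34 genes differed widely. Per kilobase of the principal transcript in Ctrl_Vehicle, the mean CPM (± SD, n = 3) was highest for PSMB4, a structural beta subunit, at 544 ± 9.35 CPM per kilobase, followed by PSMA7 at 480 ± 9.79 and PSMB1 at 376 ± 5.99. The length used was that of the longest transcript among those GENCODE ranks best as principal. Counts were per gene, and how the order depends on this choice of length was not tested. Among the catalytic subunits PSMB7 read 361 ± 5.21 CPM per kilobase, PSMB6 193 ± 1.66 and PSMB5 189 ± 4.38, and the latter pair differed by less than their spread. PSMA6, PSMA2 and PSMD9 stood last, at 14.1 ± 1.01, 5.36 ± 0.509 and 4.93 ± 0.558 CPM per kilobase. In the GENCODE annotation of GRCh38, a gene on the same strand covers 97.1% of the coding bases of PSMA2, 70.4% of PSMA6 and 58.7% of PSMD9. A same-strand gene also covers 88.6% of those of PSMA1, which read 68.0 ± 5.38 CPM per kilobase. The part of this overlap in the levels was not tested. The sources used here do not say how shared reads were assigned or whether strand was used, so the values of these 4 genes, and of PSMC1, 47.7% of whose coding bases lie opposite NRDE2, are uncertain.

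Knockout of REXO4 went with lower proteasome transcripts in both knockouts. The 34 genes summed to 8385 ± 3.94 CPM in Ctrl_Vehicle, 6843 ± 87.4 in R4KO_1_Vehicle and 6591 ± 92.4 in R4KO_2_Vehicle (mean ± SD, n = 3). Against Ctrl_Vehicle, 29 of the 34 fell and none rose in R4KO_1_Vehicle by edgeR's quasi-likelihood test (adjusted p under 0.05 over all 14348 genes tested), where 31.4% of all genes fell and 33% rose. In R4KO_2_Vehicle 30 fell and none rose, where 32.2% of all genes fell and 34% rose. Both comparisons use the same Ctrl_Vehicle libraries, so a gene read high in them is pushed down in both, and their agreement is not independent. The changes were moderate: the members' median log2 fold change was -0.31 in R4KO_1_Vehicle and -0.32 in R4KO_2_Vehicle, a median decrease of 19.1% and 20.1%, while the median of all genes was 0.02 in both. Libraries of knockout and control did not overlap, in either direction, for 28 and 31 of the 34 genes, where 64.4% and 69.1% of all genes tested did not. Without normalization factors, on total counts alone, the median of all genes moved to 0.17 and 0.19 and the members' to -0.16 and -0.15, and 20 members fell in each knockout (20.5% and 20.2% of all genes fell) while 4 and 2 rose (46.4% and 48.9%).

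The fall covered the core and the regulatory particle. All 7 beta subunits, all 6 ATPases and all 8 lid subunits passed the test as lower in both knockouts. On total counts 4 of these calls were lost in each knockout: PSMB4 (0.01 in R4KO_1_Vehicle and -0.06 in R4KO_2_Vehicle), PSMC5 (-0.06 and -0.08), PSMD7 (-0.02 and 0.05) and PSMD8 (-0.02 and -0.01). The alpha ring was mixed: PSMA1, PSMA3, PSMA5 and PSMA7 fell in both knockouts, whereas PSMA4 (0.06 in R4KO_1_Vehicle and -0.03 in R4KO_2_Vehicle), PSMA2 (-0.07 and -0.06) and PSMA6 (0.09 and 0.20) did not pass. Of the base subunits, PSMD1 and PSMD2 fell in both, and PSMD4, a ubiquitin receptor, fell by 0.19 in R4KO_2_Vehicle and read -0.03 in R4KO_1_Vehicle. The chaperones PSMD5 and PSMD9 fell in both and PSMD10, known as gankyrin, in neither. On total counts the calls of PSMA1, PSMD5 and PSMD9 were also lost in both knockouts, those of PSMA7 and PSMD2 in R4KO_1_Vehicle and those of PSMA3, PSMD1 and PSMD4 in R4KO_2_Vehicle. PSMA4 (0.21 and 0.14) and PSMA6 (0.23 and 0.37) were then called higher in both, and PSMD4 (0.12) and PSMD10 (0.14) in R4KO_1_Vehicle.

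**Figure D1:**
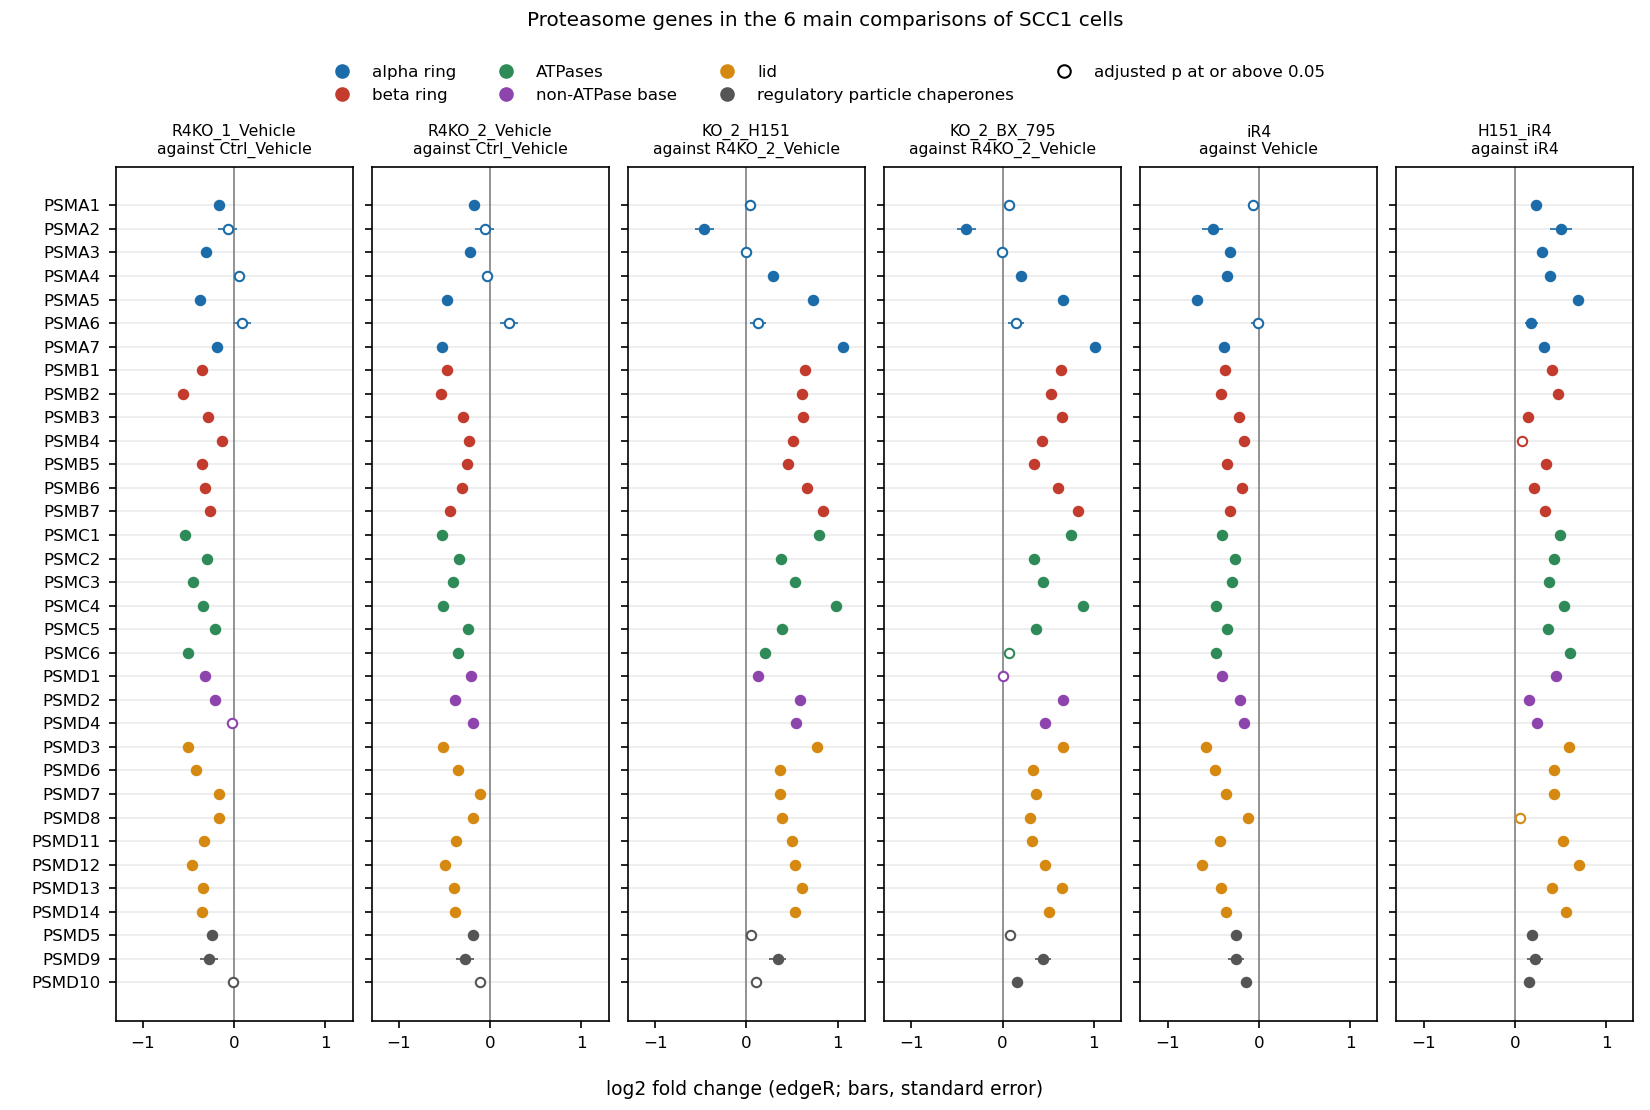
Log2 fold change of each of the 34 genes (rows, coloured by role) in the 6 main comparisons (panels), with standard errors; filled points passed the test. Most points lie left of 0 in both knockouts and in iR4 and right of 0 with the inhibitors; among those near or across 0 in at least 1 panel are PSMA2, PSMA3, PSMA4 and PSMA6, PSMD1 with BX-795 (0.01) and PSMD10 in R4KO_1_Vehicle (-0.01).

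PSMB2 (chr1:35599544-35641844, minus strand, GRCh38), a beta subunit without proteolytic activity, had the largest fall in both knockouts. It read 436, 449 and 419 CPM in Ctrl_Vehicle, 300, 277 and 299 in R4KO_1_Vehicle and 302, 304 and 291 in R4KO_2_Vehicle. Every control library lay above every knockout library, and the log2 fold changes were -0.57 ± 0.039 (SE, edgeR adjusted p = 4.3e-11) and -0.54 ± 0.039 (7.7e-11). PSMC1, an ATPase, followed in R4KO_1_Vehicle, at 133, 136 and 144 CPM in the control libraries and 92.9, 89.3 and 99.8 in the knockout, a log2 fold change of -0.54 ± 0.048 (adjusted p = 2e-09). In R4KO_2_Vehicle its libraries held 99.4, 90.6 and 95.7 CPM.

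The alpha subunit PSMA7 (chr20:62136735-62143440, minus strand) separated the knockouts from each other. Its libraries read 482, 485 and 467 CPM in Ctrl_Vehicle, 425, 413 and 416 in R4KO_1_Vehicle and 337, 340 and 312 in R4KO_2_Vehicle. The 3 groups did not overlap, and PSMA7 fell by 0.18 ± 0.036 on the log2 scale in R4KO_1_Vehicle (edgeR adjusted p = 0.00011, lost on total counts at -0.04) and by 0.53 ± 0.036 in R4KO_2_Vehicle (2e-11). Compared directly, 3 of the 34 genes were higher and 7 lower in R4KO_2_Vehicle than in R4KO_1_Vehicle, against 15.1% and 16.6% of all genes. The 3 became 1 without either of replicates 1 and 2 of either knockout, and PSMA7 had the largest difference (-0.35, adjusted p = 2.1e-07).

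The proteolytic subunits fell in both knockouts. PSMB5 (ENSG00000100804, chr14:23016543-23035230, minus strand), which cuts after hydrophobic residues and is the main target of bortezomib, held 250, 243 and 239 CPM in Ctrl_Vehicle, 192, 187 and 190 in R4KO_1_Vehicle and 209, 202 and 200 in R4KO_2_Vehicle. Its log2 fold changes were -0.36 ± 0.037 (edgeR adjusted p = 2.3e-08) and -0.26 ± 0.037 (2.1e-06), with no overlap between control and knockout libraries. PSMB6 (ENSG00000142507, chr17:4796144-4798503, plus strand), which cuts after acidic residues, held 166, 164 and 163 CPM in the control, 129, 135 and 129 in R4KO_1_Vehicle and 134, 135 and 128 in R4KO_2_Vehicle. It fell by 0.31 in each knockout, again without overlap. For PSMB7 (ENSG00000136930, chr9:124353466-124415444, minus strand), which cuts after basic residues, the libraries read 349, 359 and 355 CPM in the control, 284, 288 and 308 in R4KO_1_Vehicle and 260, 268 and 254 in R4KO_2_Vehicle. All knockout libraries lay below the control, with log2 fold changes of -0.26 ± 0.036 (adjusted p = 1.5e-06) and -0.44 ± 0.036 (5.5e-10).

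Of the immunoproteasome counterparts of these subunits, PSMB9 and PSMB10 moved opposite to them. PSMB9, which replaces PSMB6, read 28.2, 34.9 and 30.4 CPM in Ctrl_Vehicle, 50.4, 53.4 and 50.1 in R4KO_1_Vehicle and 44.2, 46 and 48.2 in R4KO_2_Vehicle. It rose by 0.73 ± 0.062 (edgeR adjusted p = 1.1e-09) and 0.57 ± 0.062 (5e-08) on the log2 scale. PSMB10, which replaces PSMB7 and 58.3% of whose coding bases a same-strand gene overlaps, rose by 0.96 in both. PSMB8, which replaces PSMB5, read -0.11 in R4KO_1_Vehicle, a call that total counts (0.03) and upper-quartile factors ended, and -0.06 in R4KO_2_Vehicle, which did not pass (0.11, called higher, on total counts).

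**Figure D2:**
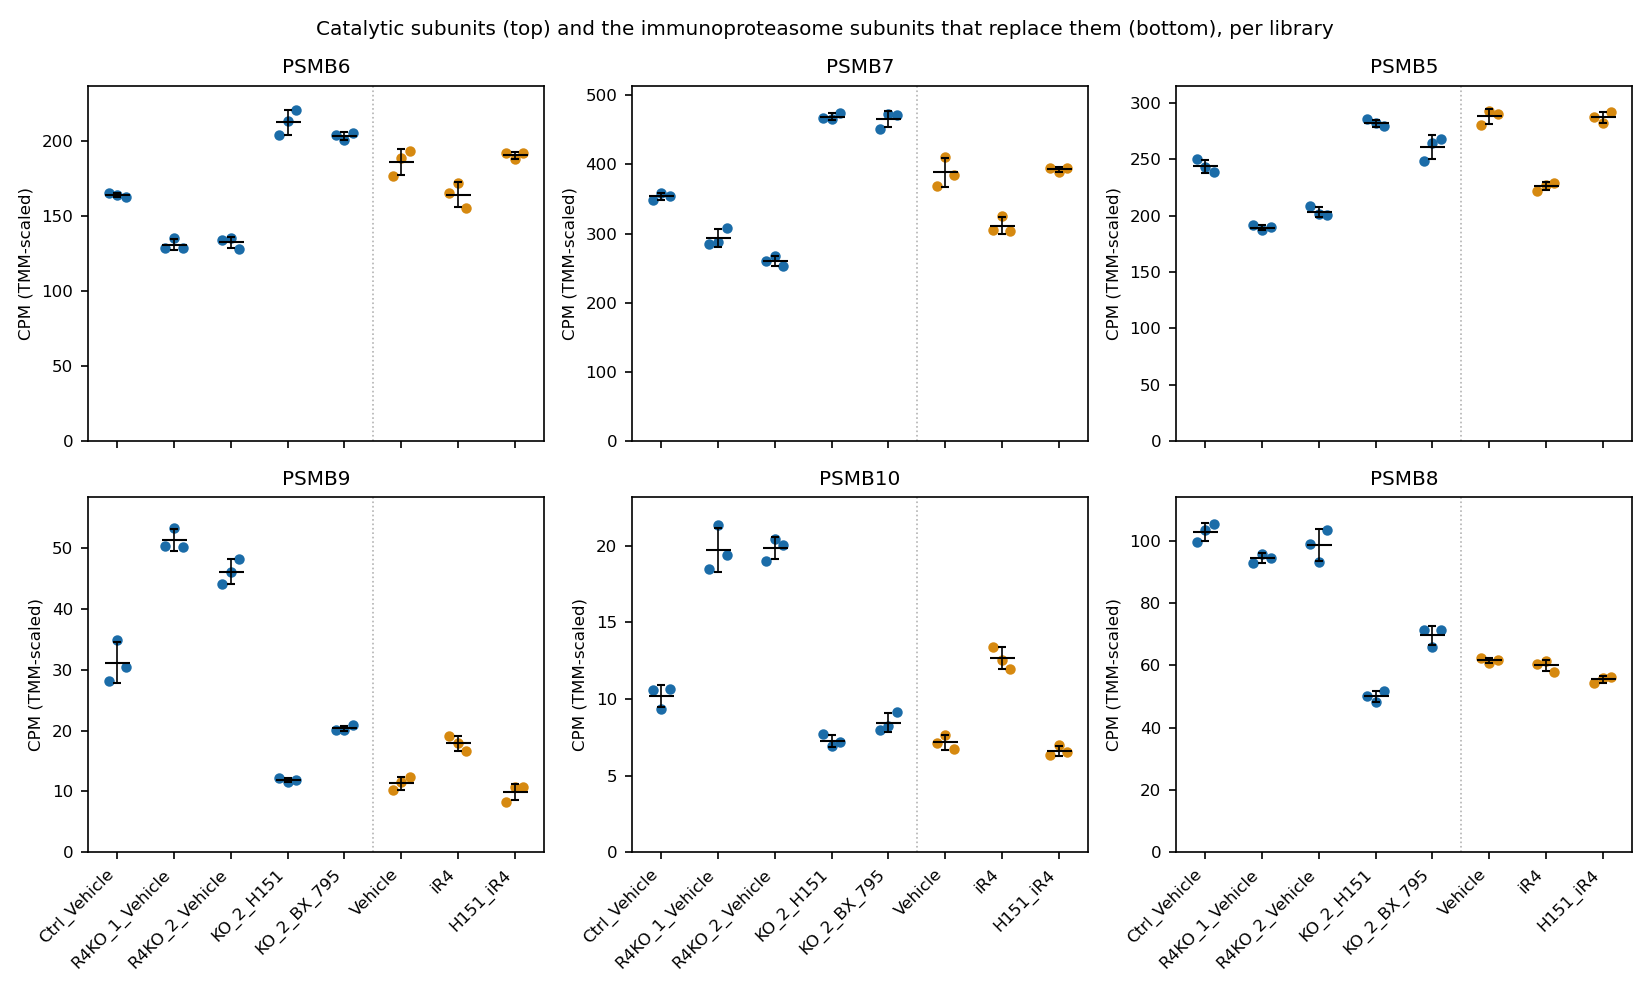
CPM per library (points; bars, mean ± SD) of the catalytic subunits PSMB6, PSMB7 and PSMB5 and, below each, the immunoproteasome subunit that replaces it, over the 8 groups, with the dotted line between the knockout and iR4 experiments. PSMB6, PSMB7 and PSMB5 dip where PSMB9 and PSMB10 peak, in both knockouts and in iR4, and PSMB8 drops to 48.2 to 51.9 CPM in KO_2_H151.

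Under iR4 proteasome transcripts were also lower, in libraries with their own vehicle group. The 34 genes summed to 8801 ± 81.6 CPM with vehicle and 6958 ± 141 with iR4 (mean ± SD, n = 3). In edgeR's test over 14000 genes, 32 of the 34 fell and none rose, where 34.8% of all genes fell and 37.1% rose, and 33 had no overlap between libraries, where 73.8% of all genes had none. The members' median log2 fold change was -0.35, a median decrease of 21.3%, against 0.02 for all genes. On total counts the median of all genes moved to 0.17 and that of the members to -0.19, and 24 members fell while 1 rose, where 23.5% and 49.6% of all genes did. Only PSMA1 (-0.06) and PSMA6 (-0.01) did not pass.

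PSMA5 (chr1:109399031-109426427, minus strand), an alpha subunit, and PSMD12 (chr17:67337916-67366627, minus strand), a lid subunit, fell most. PSMA5 held 272, 274 and 267 CPM with vehicle and 175, 172 and 161 with iR4, a log2 fold change of -0.68 ± 0.035 (edgeR adjusted p = 1e-14). PSMD12 held 237, 235 and 229 CPM with vehicle and 151.1, 148.8 and 154.8 with iR4, or -0.62 ± 0.033 (adjusted p = 1.6e-14). Neither gene's groups overlapped. The catalytic PSMB5 fell from 281, 293 and 291 CPM to 222, 228 and 229 (-0.35 ± 0.032) and PSMB7 from 369, 411 and 384 to 306, 325 and 303 (-0.32 ± 0.037). PSMB6 changed least of the 3, from 177, 189 and 194 CPM to 166, 172 and 156, with the lowest vehicle library just above the highest iR4 library and a log2 fold change of -0.18 ± 0.039 (adjusted p = 0.00023) that total counts brought to -0.03 and ended as a call.

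Across the 34 genes the sizes of the falls were related between experiments that share no library. Pearson's r between the log2 fold changes in R4KO_1_Vehicle and in iR4 was 0.60 (Spearman's rho 0.66, 34 genes), and between R4KO_2_Vehicle and iR4 it was 0.59 (rho 0.56). Without PSMA2 the 2 values of r were 0.68 and 0.68. This is a description across genes, which are not replicates and which share depth and length within each library. No such value was computed over all genes, so a relation particular to these genes is not shown.

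Most members, like most genes, were not called when the difference between the perturbations was itself tested over all 24 libraries. Against R4KO_1_Vehicle's effect, the iR4 effect was lower for 7 members and higher for 2, where 17% and 18% of all genes were, and against R4KO_2_Vehicle's it was lower for 5 and higher for 1, where 9.13% and 11.1% were. Single libraries moved these counts: the 7 was 4 without Vehicle replicate 3, the 2 was 0 or 1 without any 1 of 6 libraries (Ctrl_Vehicle replicate 2, R4KO_1_Vehicle replicate 1, Vehicle replicates 1 and 2, iR4 replicates 1 and 2), and the 1 was 2 or 3 without Ctrl_Vehicle replicate 3, R4KO_2_Vehicle replicate 2, Vehicle replicate 2 or iR4 replicate 3. PSMA4 fell under iR4 by 0.34, and its difference was -0.40 ± 0.052 against R4KO_1_Vehicle (edgeR adjusted p = 4.8e-07) and -0.31 ± 0.052 against R4KO_2_Vehicle (5.3e-05). For PSMA5 the differences were -0.29 ± 0.052 and -0.20 ± 0.052. PSMA2, a gene of small counts, was also counted as lower in both, calls that were lost with DESeq2.

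The STING inhibitor H-151 went with higher proteasome transcripts in KO_2 cells. The sum over the 34 genes was 9660 ± 140 CPM in KO_2_H151, against 6591 ± 92.4 in R4KO_2_Vehicle. Of the 34 genes 28 rose and 1 fell, where 35.7% and 37% of all 14348 genes did, and 30 had no overlap between libraries, where 76.6% of all genes had none. Their median log2 fold change was 0.51, a median increase of 42.2%, against -0.01 for all genes. With R4KO_1_Vehicle as the untreated knockout, 29 rose and 1 fell, where 33% and 35.3% of all genes did, and the median was 0.43 against -0.01 for all genes. On total counts the median of all genes moved to -0.15 and that of the members to 0.37, with 26 higher and 2 lower, where 26.3% and 46.7% of all genes were.

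Proteasome transcripts were also higher with BX-795. The sum was 9341 ± 159 CPM in KO_2_BX_795, and 27 members rose while 1 fell, where 36.4% and 37.1% of all genes did, with a median log2 fold change of 0.44 against -0.01 for all genes. Libraries of 31 members did not overlap, where those of 77.1% of all genes did not. Against R4KO_1_Vehicle 30 rose and 1 fell, where 33.8% and 35.2% of all genes did, with a median of 0.42 against -0.01 for all genes. On total counts the median of all genes was -0.14 and that of the members 0.31, with 25 higher and 3 lower, where 27.8% and 46.2% of all genes were. Both inhibitor comparisons share the R4KO_2_Vehicle libraries, which the comparison of R4KO_2_Vehicle with Ctrl_Vehicle uses with the opposite sign. Compared directly, as 1 pair of compounds of unknown dose, BX-795 and H-151 differed for 3 members, all lower with BX-795, where 3.99% of all genes were lower and 5.67% higher: PSMD11 (-0.18, edgeR adjusted p = 0.0013), PSMD1 (-0.12, 0.046) and PSMB5 (-0.11, 0.048). Of the 6 libraries compared, leaving out any except KO_2_H151 replicate 1 brought this count to 1. Over the 34 genes the log2 difference between the inhibitors ranged from -0.18 to 0.10.

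**Figure D3:**
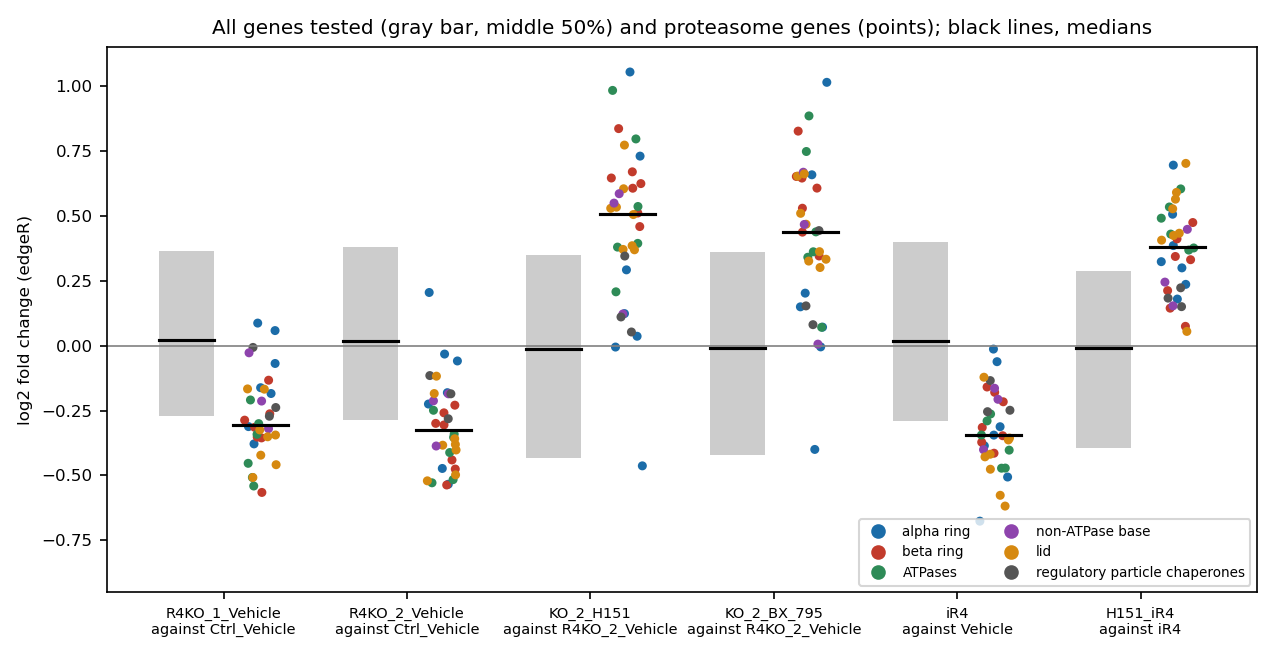
Log2 fold change of all genes tested (gray bar, middle 50%; black line, median) beside the 34 proteasome genes (points coloured by role; black line, median) in the 6 main comparisons. The medians of all genes lie within 0.02 of 0, and those of the proteasome genes at -0.31, -0.32, 0.51, 0.44, -0.35 and 0.38.

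PSMA7 and the ATPase PSMC4 rose most with both inhibitors. PSMA7 held 337, 340 and 312 CPM in R4KO_2_Vehicle, 685, 695 and 691 in KO_2_H151 and 650, 678 and 685 in KO_2_BX_795, log2 fold changes of 1.05 ± 0.036 (edgeR adjusted p = 1.5e-16) and 1.01 ± 0.036 (2.8e-16). Every treated library lay above every untreated one, those of R4KO_1_Vehicle and of Ctrl_Vehicle included, and against R4KO_1_Vehicle the log2 fold changes of PSMA7 were 0.70 and 0.66. PSMC4 held 84.8, 80.5 and 80.6 CPM in R4KO_2_Vehicle, 156, 164 and 170 with H-151 and 154, 146 and 157 with BX-795. Its log2 fold changes were 0.98 ± 0.049 and 0.88 ± 0.049, and 0.81 and 0.71 against R4KO_1_Vehicle.

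By role, all 7 beta subunits and all 8 lid subunits rose with both inhibitors, and all 6 ATPases with H-151 and 5 with BX-795, where PSMC6 read 0.07. Of the base subunits PSMD1 rose by 0.12 with H-151 and read 0.01 with BX-795, and on total counts both values lay below 0, at -0.01 and -0.12. Against R4KO_1_Vehicle both genes passed with both inhibitors: PSMC6 at 0.36 with H-151 and 0.23 with BX-795, and PSMD1 at 0.23 and 0.11. The proteolytic subunits stood among the larger rises: PSMB7 reached 467, 466 and 474 CPM with H-151 and 452, 473 and 472 with BX-795, from 260, 268 and 254. PSMB6 reached 204, 213 and 221 CPM with H-151 and 204, 201 and 206 with BX-795, and PSMB5 286, 282 and 279 with H-151 and 249, 265 and 269 with BX-795. All of these libraries lay above those of both untreated knockouts. Of the alpha subunits, PSMA4, PSMA5 and PSMA7 rose, PSMA1, PSMA3 and PSMA6 read between -0.01 and 0.15 and did not pass, and PSMA2 fell. Against R4KO_1_Vehicle PSMA6 was called higher as well (0.24 with H-151, edgeR adjusted p = 0.0218, and 0.27 with BX-795, 0.0114). Of the 3 chaperones, 1 rose with H-151 and 2 with BX-795, with median log2 fold changes of 0.11 and 0.15. With R4KO_1_Vehicle as control, PSMD9 passed with both inhibitors (0.34 and 0.43). There PSMD5 passed only with BX-795 (0.13), and PSMD10 with neither (0.002 and 0.04).

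PSMA2 (chr7:42916857-42932223, minus strand) was the exception in direction. Its libraries held 7.87, 8.1 and 6.95 CPM in R4KO_2_Vehicle, 5.64, 5.93 and 5.25 with H-151 and 6.26, 6 and 5.3 with BX-795. The groups did not overlap and PSMA2 fell by 0.46 ± 0.11 (edgeR adjusted p = 0.00047) and 0.40 ± 0.10 (0.0016) on the log2 scale, and by 0.45 and 0.39 against R4KO_1_Vehicle. These are small counts of a gene whose coding bases another gene overlaps almost whole, as stated above.

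The inhibitor libraries also stood above the control cells. Against Ctrl_Vehicle 22 members were higher and 6 lower in KO_2_H151, where 26% and 26.9% of all genes were, and 20 were higher and 4 lower in KO_2_BX_795, where 27.7% and 28% were. The higher members were led by PSMA7 (0.52 and 0.48), PSMC4 (0.47 and 0.37) and PSMB7 (0.40 and 0.39). PSMA2 (-0.52 and -0.46), PSMA3 (-0.23 and -0.23), PSMC6 (-0.15 and -0.28) and PSMD1 (-0.09 and -0.21) were lower with both, and PSMA1 and PSMD5 with H-151. The count of 6 was 3 or 2 without any 1 of 4 libraries (Ctrl_Vehicle replicates 1 and 3, KO_2_H151 replicates 1 and 3).

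In the iR4 experiment H-151 went with member levels near those of vehicle. The members summed to 8957 ± 147 CPM in H151_iR4, beside 8801 ± 81.6 with vehicle and 6958 ± 141 with iR4. Against iR4, 32 of the 34 rose and none fell, where 35.1% and 36.3% of all genes did, and 32 had no overlap between libraries, where 73.1% of all genes had none. The median log2 fold change was 0.38, a median increase of 30.2%, against -0.01 for all genes. On total counts the median of all genes was -0.14 and that of the members 0.25, with 25 higher and none lower, where 25.1% and 46.6% of all genes were. REXO4 itself rose in the same comparison (0.57 ± 0.043), and the part of that change in these values was not tested.

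PSMD12 and PSMA5, the genes that fell most under iR4, rose most. The fall and the rise use the same iR4 libraries with opposite signs. A gene read low in them is thus pushed toward a large value in each. PSMD12 held 252, 241 and 249 CPM in H151_iR4, a log2 fold change of 0.70 ± 0.033 against iR4 (edgeR adjusted p = 1.5e-15), and PSMA5 held 279, 266 and 279, or 0.70 ± 0.036 (6.3e-15). Both lay above iR4 without overlap, PSMD12 also above the vehicle libraries, while PSMA5 overlapped them. PSMB5 stood at 288, 283 and 292 CPM, PSMB6 at 192, 188 and 192 and PSMB7 at 395, 388 and 395, each above all iR4 libraries. PSMB4 (0.07) and PSMD8 (0.05) did not pass.

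Set directly against vehicle, 29 of the 34 genes did not differ detectably in H151_iR4 and 5 were higher, where 8.71% of all genes were higher and 9.58% lower. The 5 were PSMD14, the deubiquitinase of the lid (0.21), PSMC2 (0.17), PSMA1 (0.17), PSMC6 (0.13) and PSMD11 (0.10). Over the 34 genes the log2 difference ranged from -0.09 to 0.21. Without Vehicle replicate 1 the count was 3, and on total counts 4 further members were called higher.

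Whether the H-151 effect differed between the 2 settings was tested as a difference of effects over all 24 libraries. The effect in iR4 cells was smaller for 15 members and larger for 6, where 27% and 23.7% of all genes were lower and higher, and with R4KO_1_Vehicle as the untreated knockout these counts were 16 and 7, where 26.9% and 23.8% of all genes were. In the beta ring PSMB1, PSMB3, PSMB4, PSMB5, PSMB6 and PSMB7 had smaller effects in iR4 cells, the difference running from -0.51 ± 0.054 for PSMB7 (edgeR adjusted p = 3.4e-09) to -0.12 ± 0.047 for PSMB5 (0.028, and 0.054 on total counts). PSMA7 had the largest difference, -0.74 ± 0.054 (1.7e-12), which was -0.40 with R4KO_1_Vehicle as the untreated knockout, where PSMB7 had -0.34 and PSMB5 -0.23. PSMC6 (0.39), PSMD1 (0.32), PSMA3 (0.30), PSMA1 (0.19) and PSMD12 (0.16) had larger effects in iR4 cells, which with that control were 0.23, 0.20, 0.20, 0.20 and 0.19.

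PSMA2 went in opposite directions. In the iR4 experiment it held 5.85, 5.78 and 6.52 CPM with vehicle, 3.99, 3.98 and 4.75 with iR4 and 6.45, 6.04 and 5.73 in H151_iR4, so that it rose by 0.51 ± 0.12 with H-151 (edgeR adjusted p = 0.00057), where it had fallen in KO_2 cells. It was the 1 member called in opposite directions, and the difference of effects was 0.96 ± 0.15 (5e-06), or 0.94 with R4KO_1_Vehicle as the untreated knockout. Across the 34 genes Pearson's r between the H-151 effects in the 2 settings was 0.18 (rho 0.19), and 0.30 (rho 0.26) without PSMA2, again a description across genes.

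**Figure D4:**
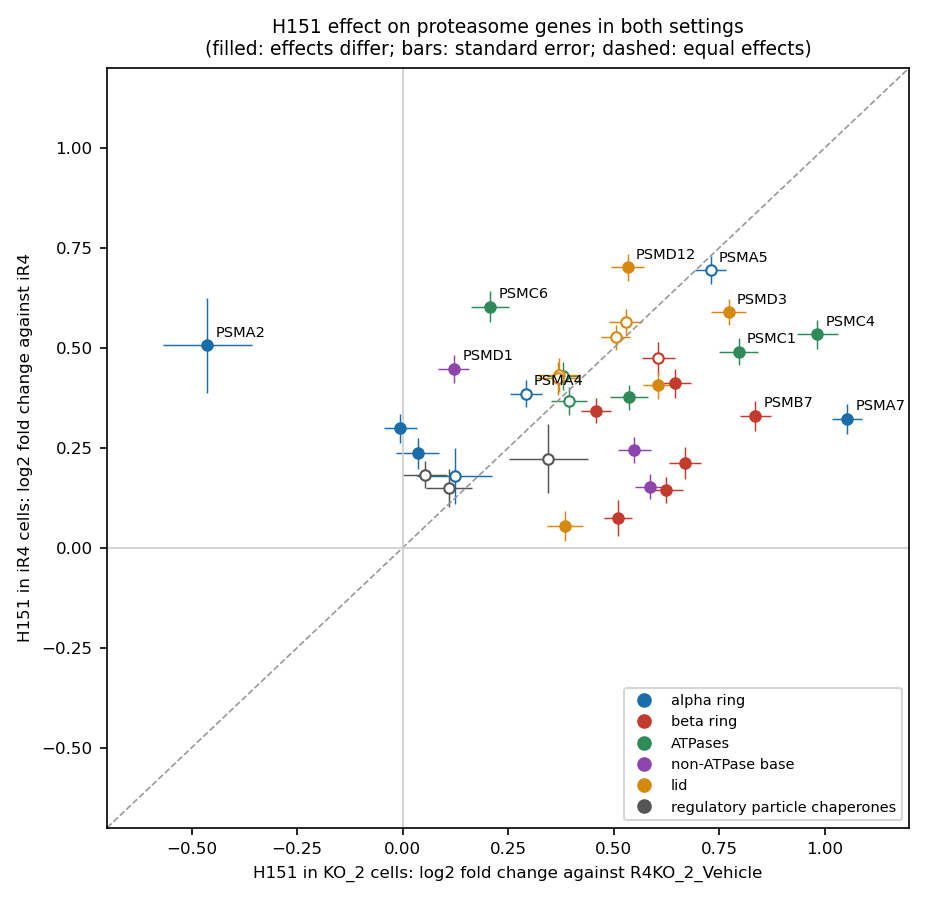
Log2 fold change with H-151 in KO_2 cells (horizontal) against that in iR4 cells (vertical) for the 34 genes, with standard errors; the dashed line marks equal effects and filled points are the 21 genes whose effects differed. PSMA7, PSMB7 and PSMC4 lie right of the line, PSMC6 and PSMD1 above it, and PSMA2 alone has a fall in KO_2 cells that passed the test.

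Genes around the proteasome were taken from lists of its assembly factors, activators, regulators and substrate supply. They too were chosen with earlier results known, and no list was tested as a whole. Over all genes, in R4KO_1_Vehicle, R4KO_2_Vehicle, KO_2_H151, KO_2_BX_795, iR4 and H151_iR4 in turn, 31.4%, 32.2%, 37%, 37.1%, 34.8% and 36.3% fell. In that order 33%, 34%, 35.7%, 36.4%, 37.1% and 35.1% rose. On total counts 20.5%, 20.2%, 46.7%, 46.2%, 23.5% and 46.6% fell and 46.4%, 48.9%, 26.3%, 27.8%, 49.6% and 25.1% rose. List counts below are to be read beside these shares. For the listed genes, inhibitor values in KO_2 cells have only R4KO_2_Vehicle as the untreated knockout, whose cells may differ, as stated above. Of 6 core assembly factors, 4 fell and 1 rose in each knockout, and 5 rose and 1 fell with each inhibitor in KO_2 cells, while with iR4 3 fell and 2 rose and with H-151 in iR4 cells 2 rose and 2 fell. On total counts 2 rose and 2 fell in each knockout and in iR4. The rise of PSMG2 in KO_2 cells was then lost with both inhibitors (0.09 with H-151 and 0.06 with BX-795). POMP, which brings the beta subunits together, read 233, 242 and 239 CPM in Ctrl_Vehicle, 193, 181 and 198 in R4KO_1_Vehicle, 178, 167 and 172 in R4KO_2_Vehicle and 270, 243 and 256 in KO_2_H151. It fell by 0.31 and 0.46 on the log2 scale in the knockouts and by 0.42 with iR4, and rose by 0.56, 0.50 and 0.42 in the 3 inhibitor comparisons. PSMG1, which helps form the alpha ring, also fell and rose in turn (-0.62, -0.70, 0.51, 0.49, -0.42 and 0.36 in the order of the 6 comparisons). PAAF1, which binds the ATPases and holds back assembly of the regulatory particle, ran the other way throughout (0.54, 0.61, -0.34, -0.20, 0.36 and -0.40).

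ADRM1, a ubiquitin receptor of the base, had a larger rise with each inhibitor in KO_2 cells, against R4KO_2_Vehicle, than any of the 34 genes. Opposite-strand genes cover 29.6% of its coding bases, and whether strand was used is not stated, so its values are uncertain. It held 102, 100 and 94.3 CPM in R4KO_2_Vehicle, 328, 281 and 289 in KO_2_H151 and 275, 289 and 296 in KO_2_BX_795, log2 fold changes of 1.59 ± 0.063 and 1.53 ± 0.063. In the iR4 experiment its change with H-151 was 0.52 ± 0.039. With it, the list of other subunits and bound deubiquitinases (ADRM1, SEM1, UCHL5 and USP14) had 3 and 4 of 4 lower in the knockouts (0 and 2 on total counts), 3 lower with iR4, and 4, 4 and 3 higher in the inhibitor comparisons (2, 2 and 3 on total counts).

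Of the 4 activators of the core (PSME1 to PSME4), 3, 2 and 4 were lower and 1, 0 and 0 higher in R4KO_1_Vehicle, R4KO_2_Vehicle and iR4. In the inhibitor comparisons 2, 1 and 4 were higher and 2, 2 and 0 lower. On total counts these were 2, 2 and 2 lower and 1, 2 and 0 higher, and 1, 1 and 2 higher and 2, 2 and 0 lower. PSME3, the nuclear activator, moved with the subunits: it held 286, 298 and 271 CPM in Ctrl_Vehicle and 168 to 179 in the knockouts, 327, 321 and 323 with vehicle and 207, 212 and 204 with iR4, and 332, 313 and 314 in H151_iR4. Its log2 fold changes were -0.68, -0.71, 0.66, 0.62, -0.64 and 0.62 in the order of the 6 comparisons. PSME1 and PSME2, the interferon-inducible pair, read 0.12 and -0.16 in R4KO_1_Vehicle, the second call lost on total counts. With H-151 in iR4 cells they rose by 0.11 and 0.14, both calls lost on total counts. In KO_2 cells they fell with H-151 by 0.90 and 0.59 and with BX-795 by 0.64 and 0.32. PSMB9 and PSMB10 fell there as well, PSMB9 to 12.2, 11.5 and 11.8 CPM with H-151 and 20.2, 20.2 and 20.9 with BX-795 from 44.2, 46 and 48.2, and all 3 immunoproteasome subunits were lower in each inhibitor comparison. Under iR4, PSMB9 rose by 0.65 and PSMB10 by 0.83, and PSMB8 read -0.04 (0.12, called higher, on total counts).

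NFE2L1, the transcription factor known to raise proteasome genes when the protease is short, rose in both knockouts and in iR4 and fell in the 3 inhibitor comparisons. It held 288, 297 and 300 CPM in Ctrl_Vehicle, 392, 398 and 422 in R4KO_1_Vehicle and 418, 408 and 395 in R4KO_2_Vehicle, then 343, 334 and 339 with H-151 and 347, 354 and 338 with BX-795. The treated groups lay between the control and the knockouts without overlap, and NFE2L1 was called higher in them than in Ctrl_Vehicle (0.19 with H-151 and 0.22 with BX-795), as 22 and 20 of the 34 genes were. In the iR4 experiment it held 286, 305 and 299 CPM with vehicle, 467, 454 and 458 with iR4 and 296, 320 and 296 in H151_iR4, where the first and last groups overlapped. The log2 fold changes were 0.46, 0.47, -0.28, -0.24, 0.63 and -0.60, all past the test. NFE2L1 is known to be controlled by cleavage and degradation of its protein, which RNA counts do not show.

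**Figure D5:**
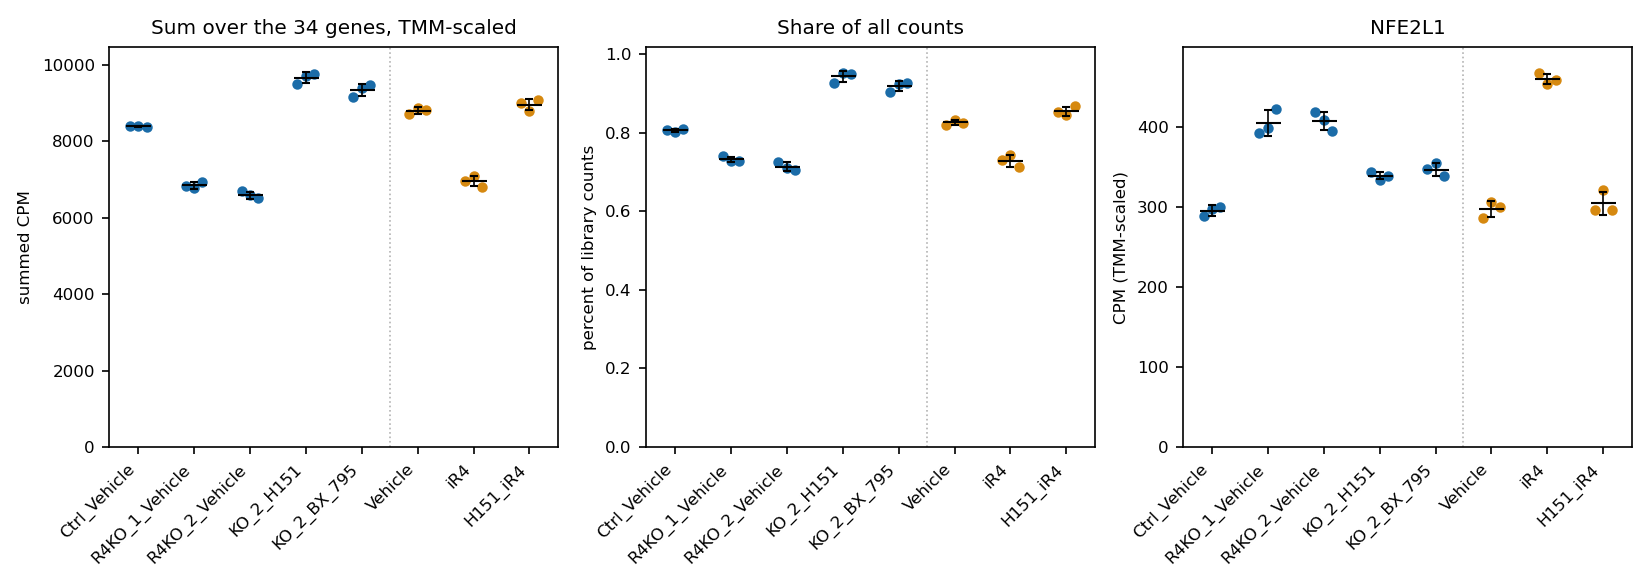
Sum of the 34 genes as TMM-scaled CPM, the same sum as a share of all counts, and CPM of NFE2L1, per library (points; bars, mean ± SD) over the 8 groups. The share ran from 0.713% in R4KO_2_Vehicle to 0.943% in KO_2_H151, and NFE2L1 is higher in both knockouts and in iR4, at 392 to 467 CPM, than in the other 5 groups, at 286 to 354.

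MAFF, a small partner of NFE2L1 and NFE2L2 on DNA that is also known as a stress-responsive gene, had the largest changes in the list of 7 genes around NFE2L1. It held 5.52, 5.53 and 4.79 CPM with vehicle, 64.2, 58.6 and 70.4 with iR4 and 8.49, 7.23 and 6.29 in H151_iR4, log2 fold changes of 3.62 ± 0.089 and -3.15 ± 0.085. In the knockout experiment it rose by 1.35 (from 9.14, 9.86 and 9.42 CPM to 14.6, 23.8 and 33.6, a wide spread) and by 1.89, and fell by 1.28 and 1.16 with the inhibitors. Of the 7, 4 rose and 2 fell in R4KO_1_Vehicle, 5 rose and 2 fell in R4KO_2_Vehicle and in iR4, and on total counts 5 rose in each of the 3 with 2, 1 and 0 lower. With the inhibitors 2, 1 and 2 rose and 3, 4 and 5 fell, and on total counts 1, 0 and 2 rose and 4, 6 and 5 fell.

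All 4 genes of the list of inhibitors and other interactors (PSMF1, ECPAS, TXNL1 and UBE3C) fell in the knockouts and iR4 and rose in the inhibitor comparisons, with 3, 3 and 4 lower and 2, 2 and 4 higher on total counts. Of 7 genes of the VCP complex 3, 4 and 4 fell and 3, 1 and 1 rose in R4KO_1_Vehicle, R4KO_2_Vehicle and iR4, and 7, 6 and 6 rose and 0, 0 and 1 fell with the inhibitors. On total counts 1, 3 and 4 fell and 4, 2 and 2 rose, and 6, 6 and 4 rose and 0, 1 and 1 fell with the inhibitors. The ATPase VCP itself, which extracts tagged proteins, fell by 0.21, 0.29 and 0.44 and rose by 0.50, 0.38 and 0.55, the first of these not past the test on total counts (-0.06). Of UBA1 and UBA6, the enzymes that activate ubiquitin, 2, 1 and 1 fell in R4KO_1_Vehicle, R4KO_2_Vehicle and iR4, and 0, 0 and 1 on total counts. UBA6 was called higher on total counts in R4KO_2_Vehicle (0.27) and in iR4 (0.18). The tissue-specific subunits PSMA8 and PSMB11 had too few counts to be tested.

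The spread of the members was narrow beside that of all genes: the middle 50% of their log2 fold changes spanned 0.18 in R4KO_1_Vehicle, 0.24 in R4KO_2_Vehicle, 0.31 in KO_2_H151, 0.42 in KO_2_BX_795, 0.19 in iR4 and 0.26 in H151_iR4, where all genes spanned 0.63, 0.67, 0.78, 0.78, 0.69 and 0.68. No set of genes of like level was compared, and the part of expression level in this narrower spread was not tested. In bulk RNA, less RNA per cell and fewer cells of a kind cannot be told apart.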

How the data were processed

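RNA from 24 SCC1 libraries was analysed. Per the labels' protocols, total RNA was enriched with oligo(dT) beads and sequenced on an Illumina HiSeq instrument, although their molecule field reads genomic DNA. Per the submitters' processing notes, reads were handled with FastQC (0.11.9) and Trim Galore (0.6.4), HISAT2 (version 2.2.1) and featureCounts (version 2.0.1), DESeq2 is also named, and the builds are mm10 and hg38. The annotation, strand setting and treatment of shared reads were not stated there. Each deposited table gives unnormalized counts by gene ID, checked to be whole numbers, and 356 IDs listed under several symbols were used once. Tumour libraries of mice were not used.

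Counts were fitted in R 4.3.3 by edgeR's quasi-likelihood test (version 4.0.16), after TMM scaling and its filterByExpr rule (smallest count 10), and p-values were adjusted over all genes tested by the Benjamini-Hochberg method (threshold 0.05). Separate fits took the knockout experiment (15 libraries) and the iR4 experiment (9), and 1 fit of all 24 gave differences of effects. All 34 proteasome genes passed the filter in each fit. Printed CPM are counts scaled by TMM factors over all 24 libraries, so fitted folds can differ slightly. Values per library are given for REXO4, the catalytic subunits, the 2 members with the largest fall and the 2 with the largest rise among called members without overlap in each main comparison, and members called in opposite directions. Genes outside the 34 come from lists of related genes, immunoproteasome subunits and PSME activators always and others where past the test. Some listed genes are not reported here. The members and lists were chosen with earlier results of these data known. As alternatives, factors were computed by RLE or upper quartile, DESeq2 (1.42.0) replaced edgeR, the filter was dropped or set to 1 CPM in 3 libraries, and fits were repeated with a replicate block, other sets of libraries and leaving out each library. Total-count scaling and R4KO_1_Vehicle as the untreated knockout were added after the data were seen. The fitting script was first tested on simulated data. Sequences are from RefSeq, gene positions from GENCODE.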

Additional observations from a re-analysis of the deposited data

Results flagged for a closer look

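Differences of effects over all 24 libraries drew attention to 6 members. The iR4 effect lay below that of R4KO_1_Vehicle for PSMA2 (difference -0.43), PSMA4 (-0.40) and PSMA5 (-0.29), and below that of R4KO_2_Vehicle for PSMA2 (-0.45), PSMA4 (-0.31) and PSMD7 (-0.25). The PSMA2 differences had edgeR adjusted p-values of 0.026 and 0.034 and were lost with DESeq2 (0.068 and 0.086). The H-151 effect in iR4 cells, less that in KO_2 cells, was 0.96 for PSMA2, -0.74 for PSMA7 and -0.51 for PSMB7.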

How the results depend on the processing

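In the 6 main comparisons the direction of the members' median held under every alternative run. Total-count scaling gave medians of -0.16 (R4KO_1_Vehicle), -0.15 (R4KO_2_Vehicle), 0.37 (KO_2_H151), 0.31 (KO_2_BX_795), -0.19 (iR4) and 0.25 (H151_iR4), and 0.18 for KO_2_BX_795 against Ctrl_Vehicle. It raised the members called higher from 0 to 4, 2 and 1 in R4KO_1_Vehicle, R4KO_2_Vehicle and iR4 and to 9 in H151_iR4 against Vehicle. Members called lower became 2 in KO_2_H151, 3 in KO_2_BX_795, 3 in KO_2_H151 against Ctrl_Vehicle and 1 between the inhibitors. Signs turned for PSMD10 (0.14), PSMD4 (0.12) and PSMB4 (0.0135) in R4KO_1_Vehicle, PSMA4 (0.14) and PSMD7 (0.0521) in R4KO_2_Vehicle, PSMA1 (0.0915), PSMD8 (0.0316) and PSMD10 (0.0186) in iR4, PSMD1 with H-151 (-0.0142) and BX-795 (-0.12), and the median difference between knockouts (0.0052). Calls over all genes also shifted, from 4742 higher and 4510 lower to 6655 and 2935 in R4KO_1_Vehicle, and from 5127 and 5303 to 3776 and 6701 in KO_2_H151. Upper-quartile factors gave medians of -0.26, -0.29, -0.30, 0.34 and 0.16 (R4KO_1_Vehicle, R4KO_2_Vehicle, iR4, H151_iR4 against iR4, KO_2_BX_795 against Ctrl_Vehicle), 1 member higher in each knockout, 1 higher between knockouts, 3 lower in KO_2_H151 against Ctrl_Vehicle, 1 lower between inhibitors and 1 higher for iR4 against R4KO_1_Vehicle's effect, as RLE factors and DESeq2 did for the last (1 each). With no filter the iR4 median was -0.36, 1 member was higher between knockouts, 4 were lower for iR4 against R4KO_1_Vehicle's effect and 2 higher against R4KO_2_Vehicle's (2 with the stricter filter). R4KO_2_Vehicle had 1 member higher with all 24 libraries or only the 2 groups fitted, and the inhibitors differed in 5 and 7 members. R4KO_1_Vehicle as the untreated knockout gave a median of 0.43 with H-151.

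Leaving out 1 library gave medians from -0.32 to -0.29 (R4KO_1_Vehicle), -0.35 to -0.31 (R4KO_2_Vehicle), -0.36 to -0.34 (iR4) and 0.41 to 0.45 (KO_2_BX_795). Counts of higher members ran from 0 to 1 in each knockout, 1 to 2 between knockouts, 3 to 5 for H151_iR4 against Vehicle, 0 to 3 and 1 to 3 for iR4 against the effects of knockouts 1 and 2. Counts of lower members ran from 1 to 2 between inhibitors, 2 to 6 for KO_2_H151 against Ctrl_Vehicle and 4 to 8 for iR4 against R4KO_1_Vehicle's effect. Replicate numbers do not pair the libraries (same-number correlations of deviations from -0.07 to 0.19); with the replicate number as a block 1 member was lower between inhibitors, and no other count moved by over 1.5 times. Small counts limit PSMA2, PSMA6 and PSMD9.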
